A study of Homo sapiens with 12 samples.

Results

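The 20 cells described here are HEK293T cells profiled by CEL-seq2 in 2 libraries of 10 cells each, which are 2 of the 12 samples of the series. HEK293T is an untreated, kidney-derived human cell line, and single live cells were flow-sorted into wells, lysed and amplified in both libraries. Library 1 is labelled with the ERCC and A60 spike-in mixes and library 2 with the ERCC mix, which the labels of library 2 tie to 5 of its 10 barcodes. All other labels are shared: the line, the assay, the pooling of 10 indexed cells and the same 10 cell barcodes. A CEL-seq2 library of 10 wells of HEK293T lysate carries these 10 barcodes as well and is given as a background without differences between whole cells. The cells were not sorted by cell cycle stage, and the labels do not say whether the libraries came from separate cultures. Cells are numbered 1 to 10 by barcode in alphabetical order, so cells with the same number share a barcode and are different cells. There is 1 library on each side, so no test of the difference between the libraries is possible. Intervals below are exact 95% intervals of the counting error alone, and SDs over the 10 cells describe the cells of that library. The interval of a fold belongs to the ratio of summed UMIs over summed totals. That ratio can differ from the fold of mean levels printed beside it.

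CEL-seq2 primes polyadenylated RNA with an oligo-dT primer that carries a cell barcode and a unique molecular identifier (UMI), pools the cells, and amplifies the pooled cDNA linearly by T7 in vitro transcription. Each UMI stands for 1 captured molecule, and reads lie near the 3′ end of transcripts. Ribosomal RNA makes up most of the RNA of a cell but lacks a poly-A tail, whereas mitochondrial messenger RNAs and mitochondrial ribosomal RNAs carry short tails and are captured well. Proliferating cells such as HEK293T also differ among themselves through the cell cycle, in which replication-dependent histone genes are expressed in S phase and genes of the mitotic spindle in G2 and mitosis.

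Library 1 held 94379 to 195438 UMIs per cell and library 2 held 80558 to 186842, with 12305 to 13764 and 11788 to 13658 genes detected. The lysate wells held 74047 to 123213 UMIs. Of the 10 HEK293T markers examined, 1 (PAX2) was at 0 in both libraries and the others summed to 2527 and 2024 UMIs. SOX4, with 1090 and 613, and VIM, with 607 and 851, held most of these. Sparse markers were NEFM, with 16 and 3 UMIs in 2 cells of each library, and CDH2, with 8 and 30. Of 12 markers of other cell types, 6 were at 0 in both libraries and the sums were 24 and 20 UMIs. Cells 2, 3 and 4 of library 2 stood apart from the other 7 cells of that library, with fewer UMIs of ribosomal protein genes and more of long transcripts, so the results that rest on them are given with and without them. The cells of library 2 whose barcodes are labelled with the ERCC mix are 2, 3, 4, 5 and 9. All 3 cells thus carry that label, as do cells 5 and 9 of the other 7. A part of the mix in this split was not tested. Cell 2 was also the shallowest cell, and its median correlation with the other cells of library 2 across 4531 genes was 0.506, against 0.749 to 0.832 for the other 9.

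To see how far 2 libraries of the same assay differ, UMIs were scaled to the total of each cell and averaged over the 10 cells, and a gene was counted when the 2 means were more than 2-fold apart. Of 11561 genes that averaged 1 UMI per cell or more over the 20 cells, 1363 (11.8%) were higher in library 1 and 849 (7.34%) were higher in library 2. The median log2 ratio of library 2 over library 1 was -0.21, and with the ratios centred on that median the 2 counts were 829 and 1194. Scaling by median-of-ratios size factors likewise gave 7.91% higher in library 1 and 9.74% higher in library 2, so the side with more genes depends on the scaling. The log10 means had a Pearson r of 0.849 across genes, which are not replicates.

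Sparse genes were past 2-fold more often than abundant ones. Between 1 and 2 UMIs per cell, 19.4% of genes were higher in library 1 and 13.2% in library 2. Among the 387 genes with at least 50 UMIs per cell, 1.81% were higher in library 1 and 10.1% in library 2. The shares of all genes given beside each class or list below are therefore not matched for level. The pair of LAST-seq libraries of HEK293T cells, with 82596 to 190557 UMIs per cell, gave 7.11% and 11.6% of 9700 genes past 2-fold by the same measure, with an r of 0.875. Against this background, a small group of genes was abundant in every cell of 1 CEL-seq2 library and at or near 0 in the other.

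**Figure D1:**
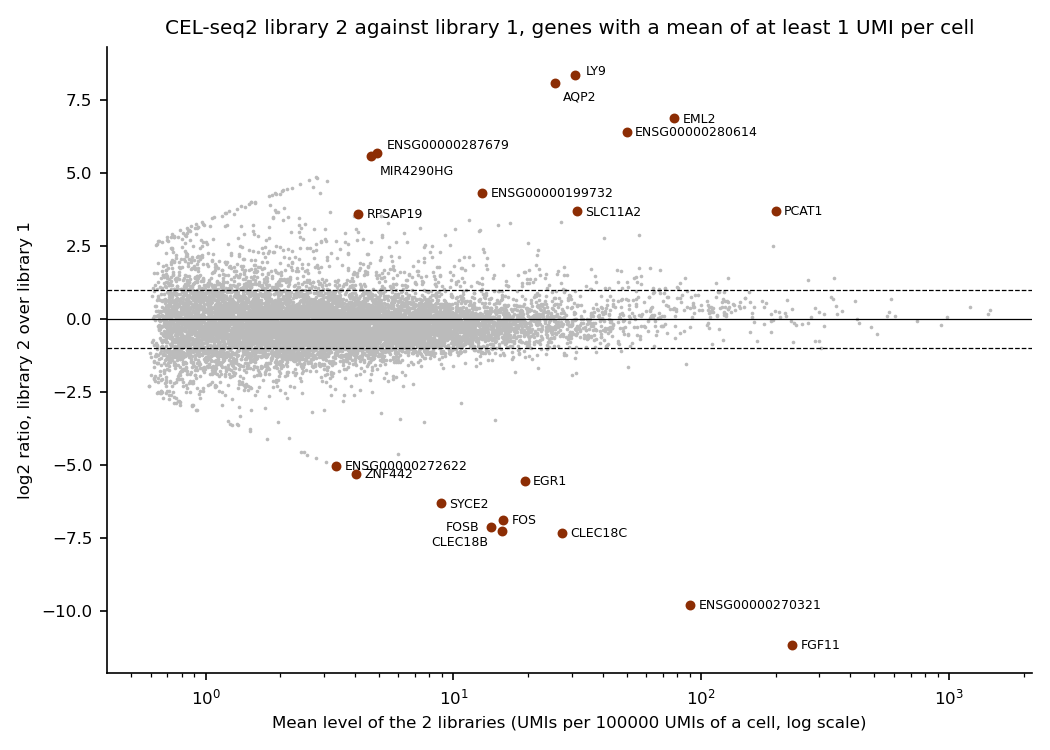
Log2 ratio of library 2 over library 1 (vertical axis) against the mean level of the 2 libraries in UMIs per 100000 UMIs of a cell (horizontal log axis) for the 11561 genes tested, with dashed lines at 2-fold and a library under 3 UMIs set to 3. The 20 named genes lie far outside the cloud, from FGF11 at -11.14 to LY9 at 8.33.

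FGF11, an intracellular member of the fibroblast growth factor family, differed most. It had 231 to 1507 UMIs in every cell of library 1, with a median of 621 and a sum of 7488. Its sum was 0 UMIs in library 2, in the lysate and in both LAST-seq libraries, so that its level was at least 2264-fold higher in library 1. The gene lies at chr17:7438273-7444937 on the plus strand, and its UMIs in library 1 came from 18199 reads, or 2.43 reads per UMI, next to a median of 2.41 over 9385 genes. The long noncoding RNA ENSG00000270321 (chr3:177952327-177959817, minus strand) followed, with 121 to 516 UMIs per cell in library 1, none in library 2 and 79 in the lysate, a level at least 877-fold higher in library 1. Neither gene overlapped between the cells of the 2 libraries.

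The CLEC18 genes, 3 near-identical C-type lectin genes on chromosome 16, differed in which copy held the UMIs. CLEC18A was at a like level in both libraries, with 69 to 469 UMIs per cell in library 1 (sum 1824) and 9 to 600 in library 2 (sum 1902). CLEC18B had 13 to 121 UMIs per cell in library 1 and none in library 2, and CLEC18C had 23 to 214 in library 1 and 0 to 2 in library 2. Of the 50-base words of the annotated transcripts, 83.5% of those of CLEC18B and 80.6% of those of CLEC18C are also found in another member, so reads of the copies are largely shared and the split is uncertain. How reads that match several copies were assigned in each library is not given in the sources used here, so a difference in that step and a difference in expression cannot be told apart for single copies. Taken as 1 family, the 3 genes had 3141 UMIs in library 1 and 1907 in library 2, a 1.56-fold difference of the mean levels. CLEC18A took 50.7% to 66.0% of the family's UMIs in each cell of library 1 and 99.2% to 100% in each cell of library 2. All 3 were at 0 in the lysate.

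Immediate early genes, which serum, stress and growth factors switch on within minutes without new protein synthesis, were a further group of genes higher in library 1. Of the 20 members of the list, 14 had enough UMIs to be compared, 9 were higher in library 1 and 1 was higher in library 2, next to 11.8% and 7.34% of all genes. The median log2 ratio of the 14 was -1.92, next to -0.21 for all genes tested. It was -2.48 in the other 7 cells of library 2, next to -0.35 for all genes tested. In cells 2, 3 and 4 it was -1.21, next to -0.09. The summed level of the list was 80.4 to 457 UMIs per 100000 in the cells of library 1, 24.2 to 112 in those of library 2 and 100 to 163 in the lysate wells. The libraries therefore overlapped in the summed level, while EGR1 did not overlap and FOS and FOSB overlapped only through cells with few UMIs.

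FOS encodes a subunit of the AP-1 transcription factor. It had 4 to 104 UMIs per cell in library 1 (median 46.5, sum 487). In library 2 it had 5 UMIs, all of them in cell 5. Its mean level was 118-fold higher in library 1, and the 95% interval for the ratio of summed UMIs was 38.8 to 282. FOSB, the paralog of FOS, had 1 to 151 UMIs per cell in library 1 (median 37, sum 440) and 0 to 2 in library 2 (sum 3). Its ratio of the mean levels was 155-fold without the floor of 3 UMIs, with an interval of 46.7 to 669. With the floor, its log2 ratio was -7.25 to -6.73 with 1 cell left out. EGR1, a zinc finger factor of the same early response, had 20 to 146 UMIs per cell in library 1 and 0 to 5 in library 2, a 46.8-fold difference with no overlap between cells. Without cell 8 of library 2, which held 5 of the 12 UMIs of EGR1 there, its log2 ratio moved from -5.55 to -6.30. The lysate had 44 UMIs of FOS, 75 of FOSB and 329 of EGR1.

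DUSP1, a phosphatase that switches off MAP kinases, had 169 and 6 UMIs in libraries 1 and 2. IER2 and ATF3, early nuclear factors, had 145 and 33 and 128 and 31 UMIs. JUN, the partner of FOS in AP-1, was more abundant in both, with 9 to 224 UMIs per cell in library 1 and 6 to 109 in library 2, a 3.10-fold difference with overlapping cells. Some members of the group rested on few cells: KLF4 had 46 of its 66 UMIs of library 1 in cell 6, EGR2 had 15 of its 17 in cell 10, and JUNB had 40 of its 79 in cell 10. The member higher in library 2 was MYC, a growth-promoting factor, with 38 and 83 UMIs. KLF6, with 131 and 93 UMIs, and IER5, with 38 and 42, were within 2-fold. The part of handling before lysis in these values was not tested, since the labels give no times.

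Serum response factor, which drives several early genes, binds the CArG box, spelled CC, then 6 letters that are A or T, then GG, a pattern that both strands share. Of 35116 promoter windows of RefSeq (GRCh38.p14), from 250 bases before to 50 after a start site, 1.29% hold the box. Windows were found for 17 of the 20 genes of the list, and EGR1 and EGR2 hold it. The windows of the other matched genes hold none, and boxes farther from a start site were not searched. Both stretches are shown 5′ to 3′ on the strand of the gene with the boxes in capitals. Whether the box has a part in the differences between the libraries was not tested. EGR1 (chr5:138465364-138465415, plus strand) has 2 boxes and EGR2 (chr10:62816418-62816447, minus strand) has 1. A match is a description of the window and not of binding.
EGR1: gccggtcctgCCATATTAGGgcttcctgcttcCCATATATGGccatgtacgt
EGR2: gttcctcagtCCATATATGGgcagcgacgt

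**Figure D2:**
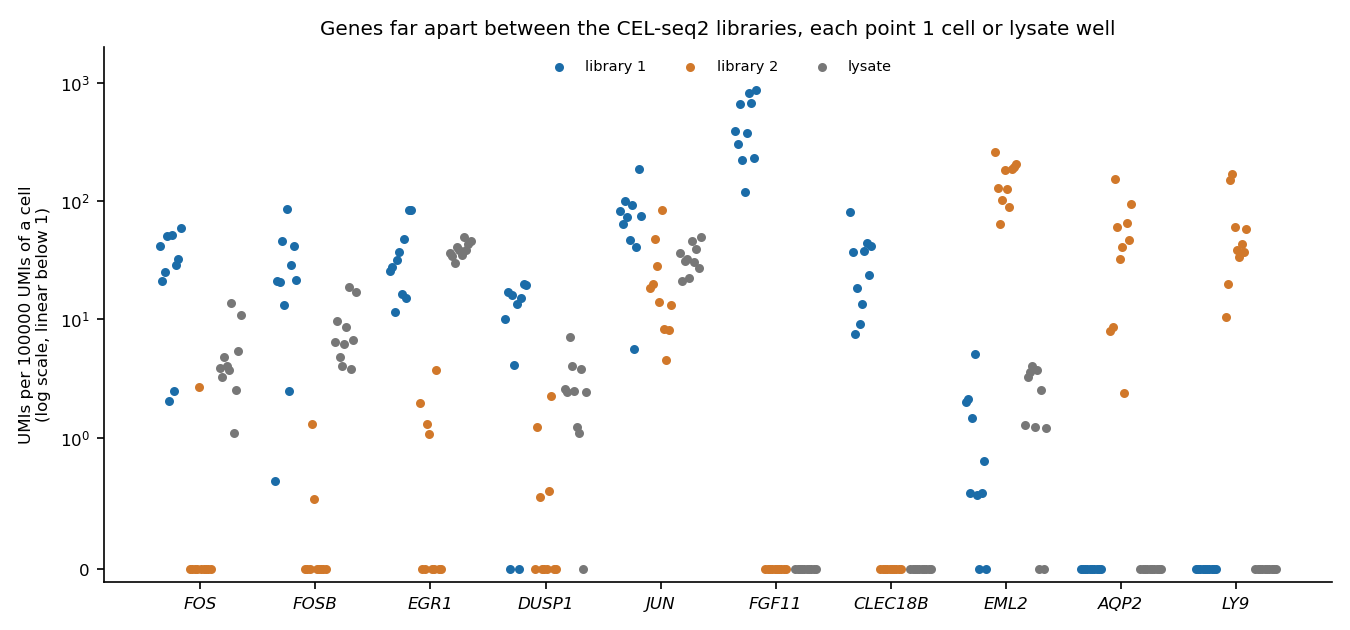
UMIs per 100000 UMIs of a cell (vertical axis, log scale, linear below 1) for 10 genes in the cells of library 1 and library 2 and in the lysate wells, each point 1 cell or well. FGF11 and CLEC18B lie at 0 in all cells of library 2, AQP2 and LY9 lie at 0 in all cells of library 1, and JUN overlaps between the libraries.

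The remaining genes of this group were SYCE2, ZNF442 and ENSG00000272622. SYCE2, which encodes a protein of the synaptonemal complex of meiosis, had 256 and 3 UMIs, and 141 of the 256 were in cell 4. Its log2 ratio was -6.31 with that cell and -5.17 without it. ZNF442, a zinc finger gene, had 5 to 20 UMIs in every cell of library 1 and 1 UMI in library 2. Its ratio of the mean levels was 97.7-fold without the floor of 3 UMIs, with a counting interval of 19.6 to 4440. With the floor, its log2 ratio was -5.39 to -5.09 with 1 cell left out. The long noncoding RNA ENSG00000272622 had 103 UMIs spread over the 10 cells of library 1 and none in library 2, a level at least 32.6-fold higher.

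Several genes showed the opposite pattern. LY9, a surface receptor of lymphocytes, had 16 to 271 UMIs per cell in library 2 (median 57.5, sum 968) and none in library 1, a level at least 322-fold higher in library 2. AQP2, the water channel of the kidney collecting duct, had 4 to 279 UMIs per cell in library 2 (median 65, sum 781) and none in library 1, at least 266-fold higher. EML2, a microtubule-binding protein, had 103 to 397 UMIs per cell in library 2 and 0 to 10 in library 1, a 116-fold difference (interval 73.5 to 182). LY9 and AQP2 were at 0 in the lysate, where EML2 had 18 UMIs. No cell of library 1 reached the lowest cell of library 2 for any of the 3.

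PCAT1, a long noncoding RNA, had 15 to 84 UMIs per cell in library 1 and 92 to 2288 in library 2. Cells 3 and 4 of library 2 held 1864 and 2288 of its 5698 UMIs, and its log2 ratio of 3.71 was 2.25 without cells 2, 3 and 4. SLC11A2, an iron transporter, was built the same way, with 365 and 333 of 907 UMIs in these 2 cells and a log2 ratio of 3.68 that was 1.99 without the 3 cells. TENM3, a neuronal adhesion protein, had 1449 and 1025 of its 4938 UMIs there, next to 928 UMIs in library 1. These were also the cells with the most UMIs of LY9, 271 and 262. In library 1, cells 3, 7, 8 and 10 were the 4 highest both for TENM3, with 134 to 200 UMIs, and for FGF11, with 1146 to 1507. ENSG00000287679, with 0 and 144 UMIs, was instead even across library 2, with 6 to 20 UMIs in every cell. MIR4290HG had 2 and 136 UMIs. Its ratio of the mean levels was 80.5-fold without the floor of 3 UMIs, with an interval of 19.7 to 606. With the floor, its log2 ratio was 5.34 to 5.72 with 1 cell left out. The small RNA gene ENSG00000199732, of the Y RNA family, had 20 and 369. That gene lies inside PTDSS1 on the opposite strand, and RPSAP19, a processed pseudogene of a ribosomal protein with 11 and 111 UMIs, shares sequence with its parent RPSA, which had 371 and 711 UMIs.

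Nuclear ribosomal RNA held a like share of UMIs in both libraries, 1.73% ± 0.48 (SD, n = 10 cells) in library 1 and 1.87% ± 0.87 in library 2, and the ratio of the means was 1.08. Cells ranged from 0.909% to 2.45% in library 1, from 0.597% to 3.66% in library 2 and from 1.32% to 3.11% in the lysate. Without cells 2, 3 and 4, whose mean was 2.45%, the ratio was 0.935. Of 5 genes tested, 2 were past 2-fold higher in library 2 and none in library 1, next to 7.34% and 11.8% of all genes. Nearly all of these UMIs fell on 4 single-exon genes of 923 bases on the minus strand of chromosome 21, each opposite an 18S gene or pseudogene of RefSeq. ENSG00000280441, which overlaps ENSG00000280614 on the other strand, had 1 and 6 UMIs. Sense 5.8S was seen as 1 UMI in library 1. The 5S genes and pseudogenes were sparse, and RNA5SP378, the only one with enough UMIs to be compared, had 7 and 17.

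Single copies of the repeat differed between the libraries although their sum did not. ENSG00000281383 (chr21:8254592-8255514) held most of the UMIs, with 20229 in library 1, 21988 in library 2 and 17921 in the lysate. ENSG00000281181 (chr21:8437629-8438551) had 5425 and 3200, ENSG00000280800 (chr21:8210384-8211306) had 363 and 490, and ENSG00000280614 (chr21:8393419-8394341) had 18 and 1496, an 84.7-fold difference (interval 55.9 to 150). In library 2 it was highest in cells 3 and 4, with 343 and 601 UMIs, and had 23 to 117 in the other 8, and library 1 had 0 to 6. The last 3 genes are identical over all 923 bases, so that reads cannot be told apart between them and, as for CLEC18, their assignment may have differed between the libraries. Their sum was 5806 UMIs in library 1, 5186 in library 2 and 1963 in the lysate. ENSG00000281383 differs from them by 2 substitutions and 2 bases inserted or deleted, an identity of 99.6%. The stretch from base 95 is shown for an identical copy and for the copy that differs, 5′ to 3′ along the transcripts of GENCODE 44 on GRCh38, with differing bases in capitals, because it holds both substitutions and 1 of the 2 inserted or deleted bases. Where in the genes the reads lie is not known from these counts.
ENSG00000280614: ggttacccGcGccTgccggcgtagggtagg
ENSG00000281383: ggttacccCcAccgccggcgtagggtagg

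Mitochondrial RNA took 7.49% ± 0.96 (SD, n = 10 cells) of UMIs in library 1 and 9.0% ± 1.89 in library 2, a ratio of 1.20. Of the 10 cells of library 2, 8 were above every cell of library 1 (6.13% to 8.59%), 1 lay within their range and cell 2, at 4.96%, lay below. Without cells 2, 3 and 4 the ratio was 1.27, and the lysate wells, at 13.4% to 15.3%, were above all cells of both libraries. Of the 32 mitochondrial genes tested, 8 were higher in library 2 and none was higher in library 1, next to 7.34% and 11.8% of all genes. Of genes with at least 50 UMIs per cell, 10.1% and 1.81% were.

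The 13 mitochondrial messenger RNAs, which encode core subunits of the respiratory chain, were not equally placed. MT-CO1 had 181 to 423 UMIs per cell in library 1 and 111 to 1332 in library 2, with sums of 2917 and 7516 and a 2.63-fold ratio of the mean levels. MT-CO2 had 2321 and 5725 UMIs (2.55-fold). These catalytic subunits of cytochrome c oxidase and MT-ND4L, with 500 and 971 UMIs, were the 3 past 2-fold, while the third mitochondrial subunit of the same enzyme, MT-CO3, had 9148 and 9516. MT-ND2 had the lowest log2 ratio, -0.53, with 9442 and 6322 UMIs, and the median of the 13 was 0.12. MT-RNR2, the large ribosomal RNA and the most abundant mitochondrial transcript, had 19992 and 23693 UMIs. MT-RNR1, the small one, had 3875 and 6317. Of 17 transfer RNA genes tested, 5 were higher in library 2, next to 7.34% of all genes, with a median log2 ratio of 0.69; in the punctuated mitochondrial genome these genes lie next to the messenger RNAs, and reads of longer precursors that run into them cannot be told apart from reads of the transfer RNAs.

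Cytosolic ribosomal protein genes, among the shortest and most abundant messenger RNAs, took 8.20% ± 1.17 of UMIs in library 1 and 11% ± 2.75 in library 2, a ratio of 1.34. The spread in library 2 had 2 levels: the other 7 cells held 10.2% to 14.5%, whereas cells 2, 3 and 4 held 7.01% to 7.67%, inside the 6.86% to 10.5% of library 1. Without the 3 cells the ratio was 1.53, and the lysate wells held 11.6% to 13.6%. Of 85 genes tested, 12 (14.1%) were past 2-fold higher in library 2 and none in library 1. The shares were 7.34% and 11.8% of all genes, and 10.1% and 1.81% of genes with at least 50 UMIs per cell. The median log2 ratio of the 85 was 0.42. RPL30 had the highest, 2.08, with 82 and 326 UMIs, followed by RPL41, with 151 and 437, and RPL10, with 499 and 1524. RPS6 and RPS2, with 4436 and 3882 and with 3806 and 3276 UMIs, had log2 ratios of -0.12 each, and RPL7L1 had the lowest, -0.57.

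Nuclear genes of the respiratory chain, which are short as well, had a median ratio above that of all genes and few members past 2-fold. Of 79 tested, 3 were higher in library 2 and none in library 1, fewer than the 7.34% and 11.8% of all genes. Their median log2 ratio of 0.33 was 0.42 in the other 7 cells and -0.19 in cells 2, 3 and 4. The medians of all genes tested were -0.35 and -0.09 in these cells. COX7C, a small subunit of cytochrome c oxidase, had 1082 and 1275 UMIs. Processed pseudogenes, intronless copies of messenger RNAs that often share reads with their parents, took 7.89% ± 1.24 of UMIs in library 1 and 10.9% ± 2.75 in library 2. Of 836 tested, 376 (45%) were higher in library 2 and 53 (6.34%) in library 1, next to 7.34% and 11.8% of all genes, with a median log2 ratio of 0.89. Their share in cells 2, 3 and 4, 7.13% to 7.41%, was again within the range of library 1 (6.37% to 10.1%), and the other 7 cells held 10.1% to 13.9%.

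Long noncoding RNA genes without the ribosomal repeat took 3.36% ± 0.40 of UMIs in library 1 and 3.18% ± 1.2 in library 2, a ratio of 0.948. The share was 3.90% to 5.79% in cells 2, 3 and 4, 1.89% to 2.95% in the other 7 and 2.55% to 4.06% in library 1. Of 614 genes tested, 154 (25.1%) were higher in library 1, next to 11.8% of all genes, and 50 (8.14%) in library 2, near the 7.34% of all genes. Among genes of 1 to 2 UMIs per cell, where calls were most frequent, these shares were 19.4% and 13.2%. MALAT1, a nuclear speckle RNA, had 3344 and 2171 UMIs, and NEAT1, the scaffold of paraspeckles, had 1057 and 703. In library 2 the highest cell for NEAT1 was cell 2, with 234 UMIs, although that cell had the fewest UMIs in all.

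**Figure D3:**
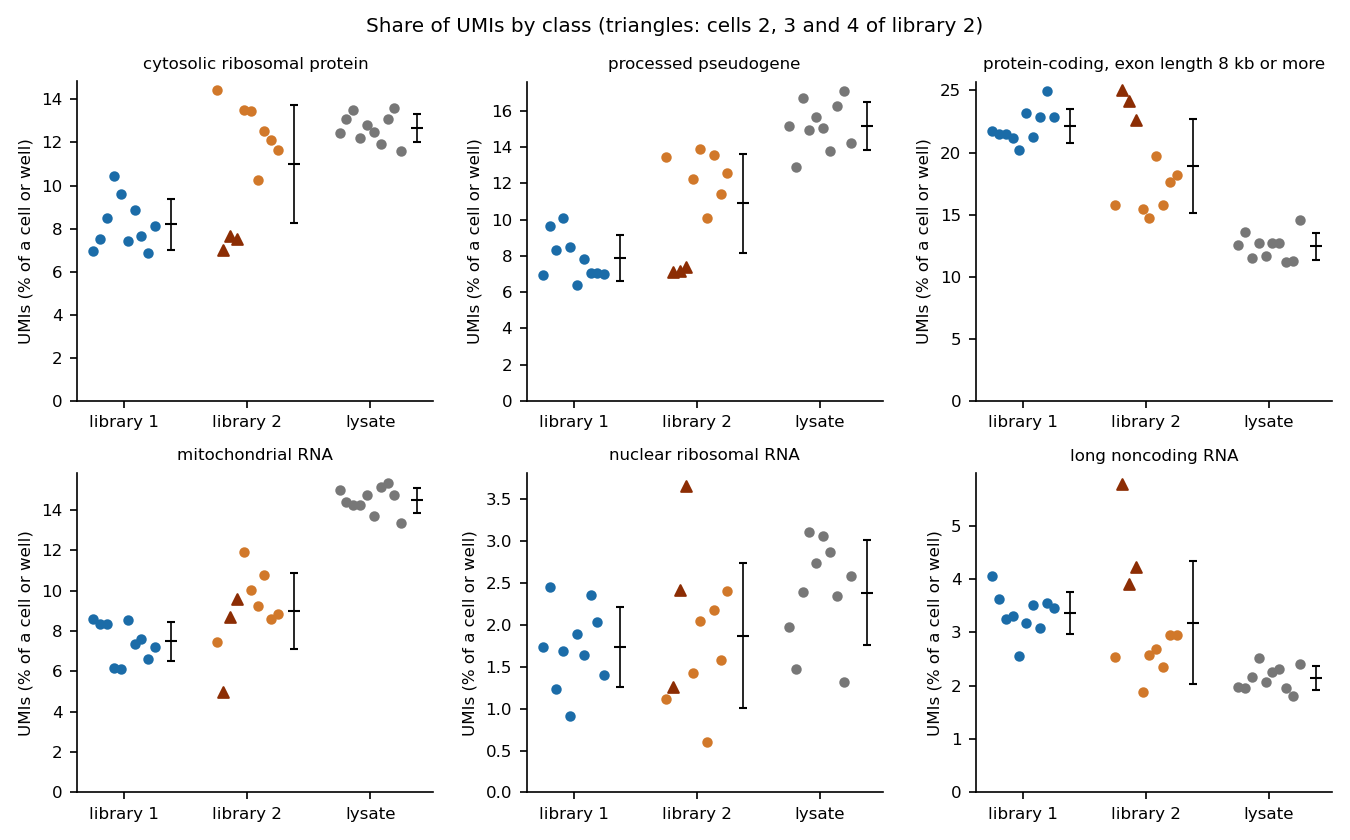
Share of UMIs in percent of a cell or well (vertical axes) for 6 classes in library 1, library 2 and the lysate, each point 1 cell or well, with the mean and SD over 10 beside them. Triangles mark cells 2, 3 and 4 of library 2, which lie with library 1 in ribosomal protein genes, processed pseudogenes and long transcripts, while the other 7 cells of library 2 lie toward the lysate.

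Long transcripts were lower in library 2 than short ones. Among protein-coding genes, with length taken as the summed exon length, the median log2 ratio was 0.32 for the 83 genes under 1 kb, 0.10 for the 553 of 1 to 2 kb, -0.20 for the 2171 of 2 to 4 kb, -0.30 for the 4053 of 4 to 8 kb and -0.30 for the 2897 of at least 8 kb. The longest class minus the shortest was -0.62. The summed length joins the exons of all annotated transcripts of a gene, so it can exceed the length of any single transcript. By the longest annotated transcript, the medians were 0.33 under 1 kb and -0.32 at 8 kb or more. The short class holds several mitochondrial, ribosomal protein and respiratory chain genes, and without the latter 2 lists the difference was -0.49 over 71 short genes. Between genes of at least 8 kb and genes under 2 kb, it was -0.36 at a GC content under 45%, -0.43 at 45% to 55% and -0.48 at 55% and more. The direction was therefore the same in each range of GC content.

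The length pattern differed between the cells of library 2. In the other 7 cells, the medians were 0.37 under 1 kb and -0.54 at 8 kb or more, and in cells 2, 3 and 4 they were -0.09 and 0.02. Genes of at least 8 kb took 20.2% to 25% of UMIs in library 1, 22.6% to 25% in cells 2, 3 and 4 of library 2, 14.7% to 19.8% in the other 7 cells and 11.2% to 14.6% in the lysate. GNAS, which encodes the stimulatory G protein alpha subunit and has a summed length over 8 kb, had 3196 and 1845 UMIs. NPM1, the abundant nucleolar chaperone in the same class of summed length, had 2361 and 3272. Which annotated transcripts of GNAS and NPM1 gave these UMIs, and how long they are, is not known from these counts. Genes with a GC content of 60% or more were also shifted, with a median of -0.35 and 19.5% of 1052 higher in library 1, next to 11.8% of all genes.

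**Figure D4:**
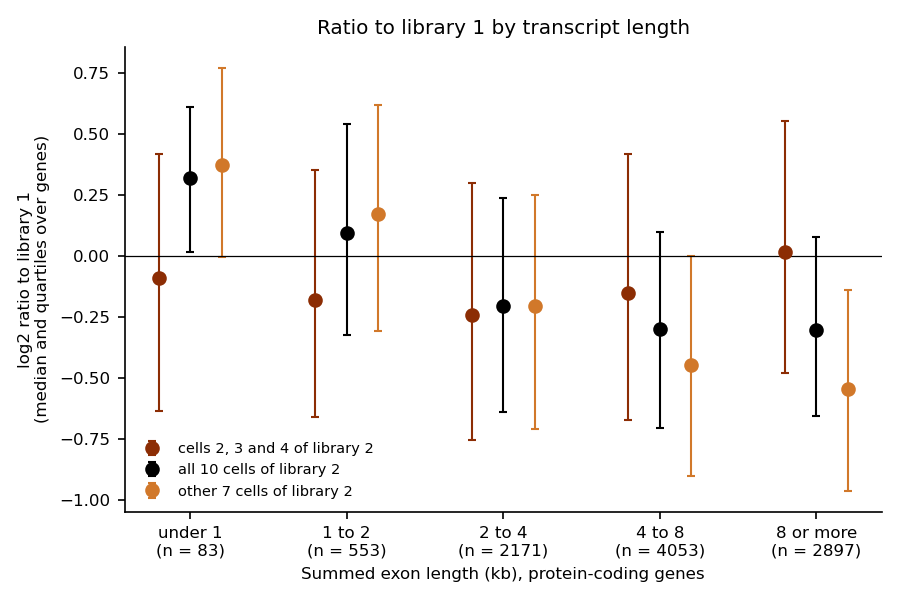
Median log2 ratio to library 1, with quartiles over genes (vertical axis), by summed exon length of protein-coding genes (horizontal axis, with the number of genes), for all 10 cells of library 2, for cells 2, 3 and 4 and for the other 7. The medians of the other 7 cells fall from 0.37 to -0.54 with length and those of cells 2, 3 and 4 stay between -0.24 and 0.02.

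Cells 2, 3 and 4 were then compared with the other 7 cells of library 2 gene by gene. Of 5476 genes, 265 were higher in each of the 3 cells than in any of the other 7, and 328 were lower than in any. Cells with the same barcodes gave 59 and 42 genes in library 1, and wells with these barcodes gave 45 and 25 in the lysate, where they had not been picked for their shares. The lower genes included 118 of 302 processed pseudogenes, 54 of 84 ribosomal protein genes and 18 of 79 respiratory chain genes, next to 328 of all 5476 genes. The higher genes included 2, 0 and 0 of these. Median exon length was 1477 bases for the lower genes, 8597 for the higher genes and 5516.5 for all. As the 3 cells were picked for these shares, the genes are a description. H1-2, a linker histone, had 118 and 89 UMIs in cells 3 and 4 and 4 in cell 2, and 0 to 9 in the other 7. MYLIP, a ubiquitin ligase, had 42 UMIs in the 3 cells and 13 in the other 7. BEX1, a small adaptor protein of neurons, had 5 and 97.

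Replication-dependent histone genes, which are expressed in S phase and whose messenger RNAs end in a stem-loop in place of a poly-A tail, depended most on these cells. Of 13 tested, 2 were higher in library 2 and 4 in library 1, next to 7.34% and 11.8% of all genes, and the median log2 ratio was 0.37. It was -1.44 in the other 7 cells and 1.72 in cells 2, 3 and 4, next to -0.35 and -0.09 for all genes tested. The direction thus turns with the 3 cells. H4C3, the most abundant, had 416 and 730 UMIs in cells 3 and 4 of library 2 and 559 in cell 7 of library 1, where the remaining cells had 7 to 213. Its lysate wells had 98 to 153 UMIs. Cells with high histone UMIs were thus present in both libraries at different barcodes.

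Other gene groups had few members past 2-fold, to be read next to 7.34% of all genes higher in library 2 and 11.8% higher in library 1. S phase genes had 1 of 41 higher in library 2 and none higher in library 1, and G2 and mitosis genes had 2 and 5 of 56. The median log2 ratio of the latter was -0.35. It was -0.62 in the other 7 cells, where the median of all genes tested was -0.35. Glycolysis genes had none of 15 past 2-fold in either direction, and ENO1, enolase, had 1960 and 2474 UMIs. Of 15 ATF4 target genes, which respond to amino acid shortage, 1 was higher in library 1, and of 21 cholesterol genes 3 were higher in library 2 and 1 in library 1. Among 16 chaperones, HSPA8, the constitutive HSP70, was higher in library 2 with 431 and 876 UMIs. Its stress-induced relatives HSPA1A, with 39 and 5 UMIs, and HSPA1B, with 19 and 68, went opposite ways, but 73.7% and 71.6% of their 50-base words are shared, and 37 of the 39 UMIs of HSPA1A were in cell 10 of library 1.

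Variation between cells was compared next, since library 2 played no part in choosing the variable genes of library 1. In each library, the 4531 genes with at least 5 UMIs per cell in both were ranked by the squared coefficient of variation over its median among genes of like mean, and the top 10.0% (453) were called variable. The 2 sets shared 116 genes, 25.6% of each (interval 21.6% to 29.9%), and 2.56% of all genes were variable in both. Over 2130 genes that could also be ranked in the lysate, library 1 and library 2 shared 61 of 213 variable genes (28.6%), library 1 and the lysate 37 (17.4%), library 2 and the lysate 43 (20.2%), and all 3 shared 19. The wells of the lysate hold no whole cells, so the shares with the lysate give the background that this ranking has without them.

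Cell cycle genes were among the shared variable genes. Of 77 genes of the 3 cell cycle lists, 38 were variable in library 1 and 20 in library 2, next to 10.0% of all genes in each. In both libraries 13 were variable (16.9%, next to 2.56% of all genes). In the lysate 6 of 51 were variable, near the 10.0% of all genes called there. The G2 and mitosis list gave 23 and 16 of 43, and 10 in both: AURKA, CDC20, CENPF, G2E3, KIF20B, MKI67, PLK1, TACC3, TOP2A and TTK. AURKA, the kinase that matures the spindle poles, had 22 and 42 UMIs in cells 4 and 5 of library 1 and at most 17 elsewhere; in library 2 it had 19 and 26 in the cells with the same 2 numbers and at most 9 elsewhere. PLK1, another mitotic kinase, was highest in cell 5 in both libraries, with 71 and 28 UMIs. The S phase list gave 13 and 2 of 32, next to 10.0% of all genes, so in library 2 it was not above that share. CLSPN, which stabilises replication forks, was the member shared. H4C3 and H1-2 were the histone genes that could be ranked, and both were variable in both libraries.

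Genes outside the cell cycle that varied in both libraries had several roles. JUN ranged from 9 to 224 UMIs in library 1, where cell 7 was lowest, and from 6 to 109 in library 2. INSIG1 and IDI1, a sensor and an enzyme of the cholesterol pathway, were highest in cells 5 and 10 of library 1, and reached 184 and 67 UMIs in cells 4 and 10 of library 2. SLC7A11, the cystine transporter of the ATF4 response, MALAT1, NEAT1 and NORAD among noncoding RNAs, and SOX4, a transcription factor, were also among the shared genes. ADAMTS1, a secreted metalloproteinase, had 0 to 98 and 0 to 56 UMIs, and PMAIP1, a p53 target that promotes apoptosis, had 2 to 53 and 1 to 25. TENM3, with 25 to 200 UMIs in library 1, and the noncoding RNA ENSG00000283907, with 30 to 257, reached 1449 and 414 in cells 3 and 4 of library 2 respectively.

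Of the 4531 genes ranked, 11 had their highest level at the same barcode in both libraries and in the lysate. In each, that level was at least 3-fold above the median of the cells or wells. All 11 were among the 116 genes variable in both libraries, and the measure of variation rises with such a high cell. CEP41, a centrosomal protein, had 216 of its 287 UMIs of library 1 and 72 of its 119 of library 2 in cell 8, and 26 of 45 in lysate well 8. CNP, a phosphodiesterase of myelin, had 155 of 237, 99 of 174 and 46 of 81 in cells 7 of both libraries and lysate well 7. The 11 genes, chosen after their values were seen, were COA8 at barcode 1, RC3H1 at 3, ZBTB8A at 4, CNP, DDX52, ETV6 and GDAP2 at 7, CEP41 and NABP1 at 8, and FEM1A and VSIG10 at 10. The cells of the 2 libraries are different cells, and the lysate wells hold the same lysate, so for these genes cell identity and barcode cannot be told apart from 1 library alone.

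Across all 4531 genes the highest cell had the same barcode in both libraries for 9.03% and in library 1 and the lysate for 9.87%. For the 414 genes of library 1 whose highest cell was at least 3-fold above the median, these shares were 10.9% and 12.3%. For the 814 such genes of library 2 they were 8.35% with library 1 and 13.6% with the lysate. At 8-fold or more, the shares were 31.8% and 45.5% of 22 genes of library 1, which is 7 and 10 genes. For 105 genes of library 2 at 8-fold or more they were 6.67% with library 1 and 15.2% with the lysate. Deviations of cells from their library mean had a median correlation of -0.02 between cells with the same barcode and 0.01 between cells with different barcodes. Of the 13 cell cycle genes variable in both libraries, AURKA, CENPF and PLK1 had their highest cell at the same barcode in both and the other 10 did not.

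**Figure D5:**
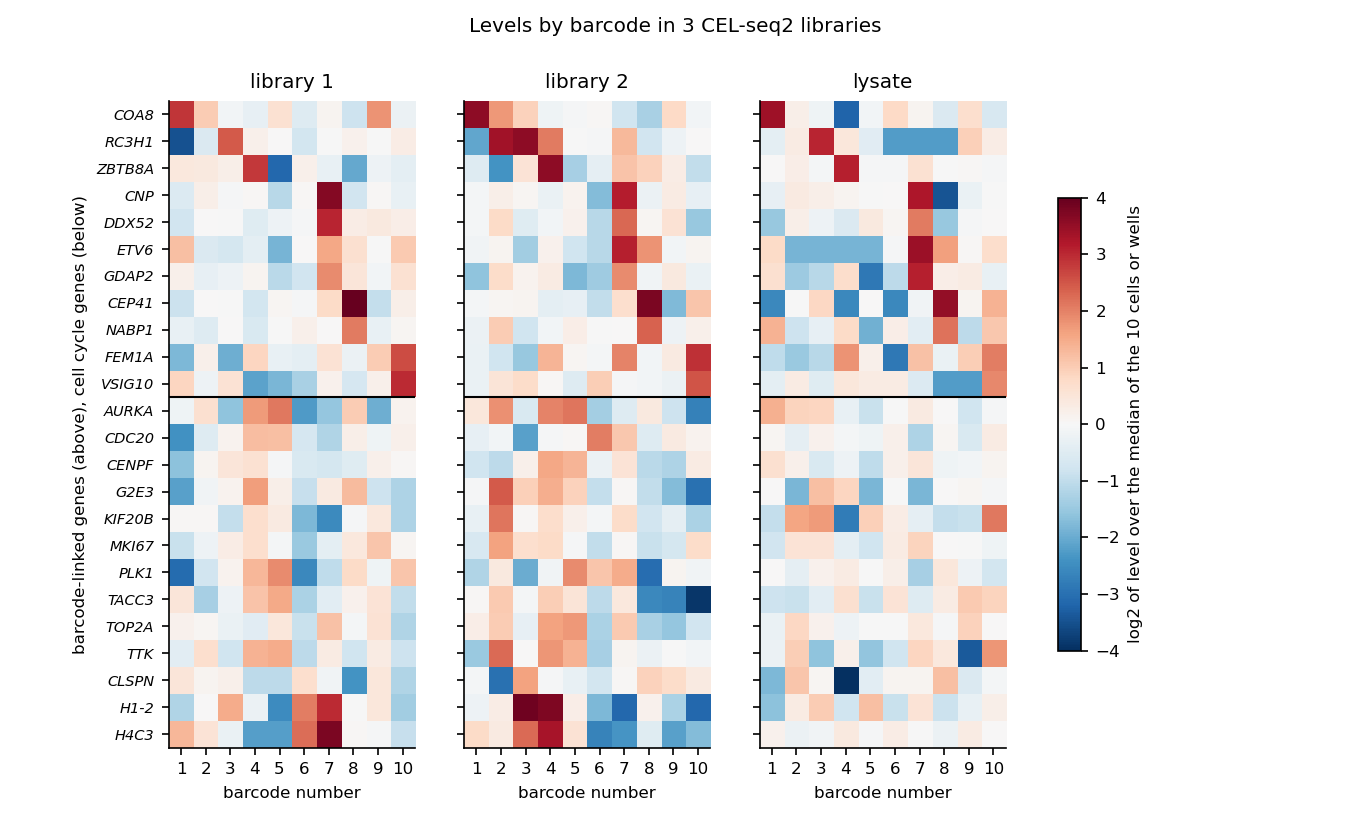
Log2 of the level over the median of the 10 cells or wells (colour scale), with 0.5 added to both, by barcode number (horizontal axes) in library 1, library 2 and the lysate, for the 11 barcode-linked genes (above the line) and for cell cycle genes variable in both libraries (below). The upper rows are darkest at the same barcode in all 3 maps, whereas H4C3 is highest at barcode 7 in library 1 and at barcode 4 in library 2 and near 0 across the lysate.

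The transcripts of the 4531 genes were searched for stretches that read as the barcode end of the primer, which is the 6-base barcode followed by T. Of 45310 pairs of a gene and a barcode, 18 in 17 genes (0.0397%) hold the barcode followed by at least 8 T on the transcript strand, and 11 hold the reverse complement, at least 8 A followed by the complementary barcode. Among the 18, the gene was above 2-fold at that barcode in all 3 libraries for CNP and FYTTD1, and among the 11 for none. Their stretches are shown 5′ to 3′ on the transcript strand, with the barcode in capitals, as the matches that go with a high level at that barcode. The CNP stretch lies at chr17:41973999-41974024 and the FYTTD1 stretch at chr3:197785932-197785951, both on the plus strand of GRCh38 in an exon of the untranslated region.
CNP, barcode 7: GTGACAtttttttttttttttttttt
FYTTD1, barcode 3: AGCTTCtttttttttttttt

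The level of CNP at barcode 7 was 13.9, 9.89 and 10.2 times the median of the other cells in library 1, library 2 and the lysate, and that of FYTTD1 at barcode 3 was 2.64, 2.13 and 2.88 times. CNP holds a like stretch for barcode 4, CAGATC followed by 18 T, where its level was 1.06, 0.784 and 1.09 times the median. Over the 18 pairs the median was 0.915 in library 1, 1.26 in library 2 and 0.934 in the lysate. The other 10 barcode-linked genes hold no such stretch on either strand in their annotated transcripts, which says only that these letters are not there, since unannotated and genomic sequence was not searched.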

How the data were processed

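Single HEK293T cells were profiled by CEL-seq2. The authors trimmed the reads, dropped UMIs that held low-quality bases, aligned to a GRCh38 reference joined to the spike-in sequences, drew the same number of reads for each compared sample, and obtained exonic UMIs with zUMIs, where identical UMIs of a gene and cell count once. The values they deposited are raw UMI counts and, for library 1, read counts per gene and barcode, without normalization; the subsampled depth is not given in the sources used here. Per the labels, bcl2fastq 2.20 was used. Depth per cell is given in the report and limits genes of few UMIs.

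Spike-in rows were removed, UMIs scaled to 100000 per cell and averaged over the 10 cells. A mean under the level of 3 UMIs per library was set to that floor. The ratios of mean levels printed for FOSB, ZNF442 and MIR4290HG were taken without the floor. Gene names, types, positions and exon lengths came from GENCODE 44, a later release than the one used upstream, and matched 99.6% of genes. Sequences came from GENCODE, RefSeq promoters and the genome. Counting intervals were exact at 95% (Poisson, binomial). Python 3.11.15, numpy 2.4.6, pandas 2.3.3, scipy 1.17.1 and edlib 1.3.9 were used, and the scripts were tested on simulated data.

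Named genes were the 10 highest and 10 lowest ratios among tested genes with at least 100 UMIs in the higher library, the ribosomal and mitochondrial RNA genes, the 15 genes most variable in both libraries, and, of each list, 2 to 4 of the most abundant members and those variable in both. Genes named outside this rule, such as those tied to cells 2, 3 and 4 or to a barcode, list members quoted for extreme values, and related copies, were chosen after their values were seen. The members and lists were chosen with earlier results of these data known. No cells were excluded and no doublet caller was run on 20 sorted cells. None of the 10 pairs of cells with a shared barcode in the 2 libraries was near-identical.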

Additional observations from a re-analysis of the deposited data

Results flagged for a closer look

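Spike-in UMIs appeared in cells of library 2 whose barcodes the labels do not tie to the ERCC mix. These 5 cells held 236 to 293 spike-in UMIs each, whereas the 5 cells labelled with the mix held 2225 to 4540 and the lysate wells held 58 to 90. These values are given because they lie above those of the lysate, and spike-in rows enter no comparison above. Whether the 5 cells received a small amount of the mix or reads of other wells was not tested.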

How the results depend on the processing

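No paired analysis was possible because each side is 1 library and the comparison comes from no test. Of 280 recomputed values of the main quantities, most of them from leaving out 1 cell, 264 stayed within their tolerance. For shares of UMIs the tolerance was the spread between cells, which is wide. The ratio of the nuclear ribosomal RNA share thus counted as within it from 0.935 to 1.23, on both sides of 1. The number of genes higher in library 1 (1363) was 2058 with the median of cells, 2249 without a filter on low counts, 144 at a mean of at least 10 UMIs, and, with settings chosen after seeing the data, 2218 without cells 2, 3 and 4 of library 2 and 829 with ratios centred on their median. The number higher in library 2 (849) was 1668 without a filter and 156 at 10 UMIs; fewer or more genes enter under the filters. Long minus short transcripts (-0.62) was -0.30 with the 5 cells labelled ERCC, -0.29 without a filter, -0.49 at 10 UMIs and -0.93 without cells 2, 3 and 4. Cell cycle genes variable in both (13) were 6 after thinning to 80558 UMIs, 8 at 10 UMIs and 5 with the top 5 percent. Leaving out 1 cell gave -0.66 to -0.47 for length, 12 to 21 cell cycle genes (21 without cell 2 of library 2), 1326 to 1740 and 813 to 922 genes past 2-fold. The histone median (0.37) turned to -0.22 with the median of cells, -1.81 without cells 2, 3 and 4 with the filter reapplied, and -0.26, -0.08 and -0.22 without cell 2, 3 or 4 alone (-0.26 to 0.56 over all cells left out). The cause of these changes was not tested. With few UMIs per gene, ratios of sparse genes carry large counting error.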
